A study of Capra hircus with 2 samples.

Results

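Collagens are the structural proteins of the extracellular matrix: 3 chains, each encoded by its own gene or by copies of 1 gene, wind around each other and assemble outside the cell into fibrils, sheets or filaments. Fibrillar types such as type I give connective tissue its tensile strength, type IV chains form the mesh of basement membranes, and other members sit on fibril surfaces or link cells to the matrix. In the developing ovary, basement membranes separate the cords of germ cells and pregranulosa cells (the somatic cells that surround each oocyte in a primordial follicle) from the stroma, the connective tissue between them, and capillaries run within that stroma. The collagen genes were taken as every feature of the count table whose symbol is COL, a number, A and a number, which gave 26 of 27271 features.

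The study sequenced single cells of fetal goat (Capra hircus) ovary at 2 stages of gestation, E85 and E125 (the number is the day of embryonic life), a span in which primordial follicles assemble. Each stage was 1 library of female tissue. The labels give no breed, treatment or number of animals. For both libraries the protocol text gives the same enzymatic dissociation, which included collagenase IV. With 1 library per stage no test was possible, and every difference between the stages is a difference between these 2 libraries. The intervals below cover 95% counting error only.

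The deposited tables held 4397 barcodes and 17748948 unique molecular identifiers (UMIs, 1 per captured RNA molecule) at E85, and 8346 barcodes and 49692252 UMIs at E125. After removal of low-quality barcodes and likely doublets, 3832 and 7034 cells remained, with medians of 3109 and 3172.5 UMIs. The libraries shared 13 barcodes. Oocyte genes such as FIGLA and ZP3 led 1 cluster in both libraries, although the protocol text speaks of testes. Cells were clustered without the collagen genes and named "-like" from other marker genes. Stromal-like cells numbered 2789 at E85 and 4512 at E125, pregranulosa-like cells 291 and 582, endothelial-like cells 85 and 766, germ-cell-like droplets 69 and 135, and myeloid-like cells 51 and 112. Perivascular-like (31 and 140), surface-epithelium-like (261 and 27), lymphoid-like (26 and 89) and glia-like cells (3 and 77) were too few in at least 1 library for a comparison of stages. A further 226 and 594 cells stayed unnamed.

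Of the 26 collagen genes, 25 had a UMI at E85 and all 26 at E125. Collagen genes took 0.122% of all UMIs at E85 and 0.200% at E125. All 26 symbols are known to RefSeq (assembly ARS1.2), which lists 44 collagen symbols in goat. The other 18, among them COL3A1, COL5A1, COL6A1, COL18A1 and the type IV genes COL4A3, COL4A5 and COL4A6, have no feature under that symbol and are not analysed here. In that annotation COL4A1 lies next to COL4A2, and COL6A5 next to COL6A6. Levels below are CPM, the UMIs of a gene per 1000000 UMIs of its class in 1 library. They are compared for 1 gene across classes, because capture at the 3′ end is not scaled by gene length and can differ between genes.

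The stroma and the vessel-associated cells held most collagen RNA. In stromal-like cells collagens made up 0.205% (0.202 to 0.208) of UMIs at E85 and 0.438% (0.435 to 0.442) at E125. Perivascular-like cells, the contractile and support cells around vessels, held 0.340% and 0.4003%, and glia-like cells held 0.308% at E125. Endothelial-like cells, which line the vessels, held 0.0906% (0.0831 to 0.0985) at E85 and 0.228% (0.224 to 0.232) at E125. The follicular classes held far less: 0.0331% and 0.0394% in pregranulosa-like cells, and 0.00810% and 0.0114% in germ-cell-like droplets. Myeloid-like cells, an immune class, held 0.00722% and 0.0131% and are given as a low level to compare with. Their collagen UMIs lay in few cells, such as 9 COL1A2 UMIs in 2 of 51 cells at E85. Free RNA in the droplets, doublets and expression by these cells were not told apart.

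At an equal depth of 2000 UMIs per cell, 92.4% of stromal-like cells at E85 and 98.2% at E125 held at least 1 collagen UMI. The median stromal-like cell then held UMIs of 2 collagen genes at E85 and 4 at E125. Among endothelial-like cells the share was 79.2% of 72 cells and 91.5% of 668 cells, among pregranulosa-like cells 46.2% and 57.0%, and among myeloid-like cells 4.0% and 10.2%. The thinning left out 670 and 1093 stromal-like cells that were shallower than 2000 UMIs.

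**Figure D1:**
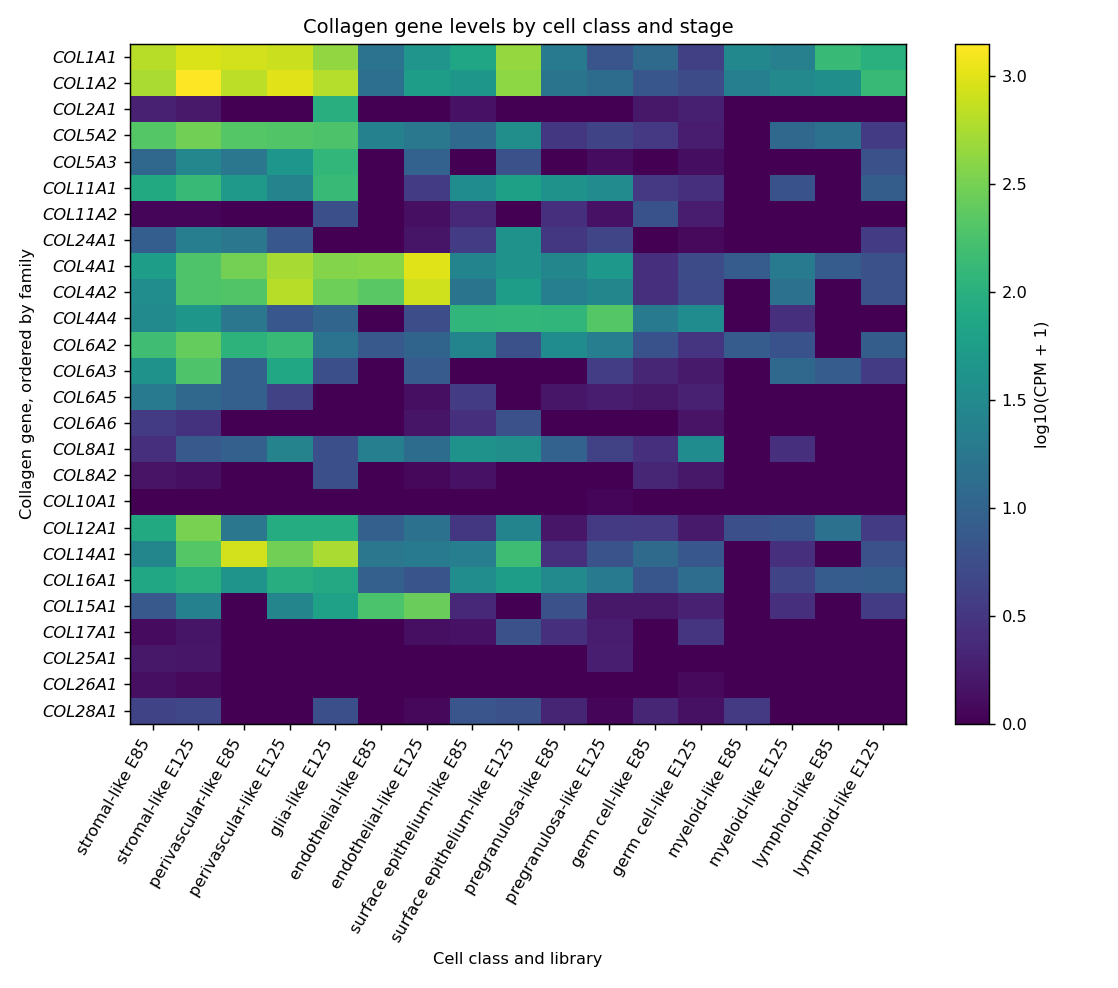
Level of each collagen gene (rows) in each cell class of 15 or more cells (columns) at E85 and E125, in CPM on a log colour scale. The fibrillar genes COL1A1, COL1A2 and COL5A2 are high in stromal-like, perivascular-like and, at E125, glia-like cells. Other fibrillar genes, such as COL2A1 and COL11A2, are low in stromal-like cells. COL4A1, COL4A2 and COL15A1 peak in endothelial-like cells, and COL4A4 stands out in pregranulosa-like and surface-epithelium-like cells.

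Type I collagen, the main fibril former, was highest in the stromal and perivascular classes. COL1A1, which encodes its α1 chain, was at 649 CPM (632 to 667) in stromal-like cells and 865 CPM (708 to 1048) in perivascular-like cells at E85. At E125 the order was the other way round, with 941 CPM (925 to 957) in stromal-like and 781 CPM (715 to 851) in perivascular-like cells. COL1A2, the α2 chain, was at 559 CPM in stromal-like and 676 CPM (537 to 839) in perivascular-like cells at E85, where the lower bound for the 31 perivascular-like cells lies below the stromal level. At E125 COL1A2 reached 1410 CPM in stromal-like and 1017 CPM in perivascular-like cells. In thinned cells 57.8% of stromal-like cells at E85 and 69.5% at E125 had a COL1A2 UMI. The shares of myeloid-like cells were far lower, at 4.0% and 4.55%. Unthinned, the stromal shares were 67.4% and 74.6%.

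Levels of COL1A1 and COL1A2 in some small classes came from single cells. In lymphoid-like cells at E125, 50 of the 52 COL1A2 UMIs lay in 1 cell. In the 27 surface-epithelium-like cells at E125, 54 of the 88 COL1A1 UMIs lay in 1 cell. The E125 levels of these 2 genes in both classes therefore describe those cells rather than the class.

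The minor fibrillar chains, which join type I fibrils and set their width, were not all highest in the same class. COL5A2 was at 208 CPM in stromal-like and 206 CPM in perivascular-like cells at E85, levels that cannot be told apart (133 to 304 CPM for the perivascular-like cells), and at 303 and 195 CPM at E125. COL11A1 was at 80.5 CPM in stromal-like cells at E85. At E125 it was at 132 CPM in stromal-like and 131 CPM (86.6 to 191) in glia-like cells. COL5A3 was highest in glia-like cells at E125 with 122 CPM (78.8 to 180), against 44.1 CPM in perivascular-like and 27.6 CPM (24.9 to 30.5) in stromal-like cells. COL24A1 was at 21.2 CPM in stromal-like cells at E125 and at 40.4 CPM (17.4 to 79.6) in the 27 surface-epithelium-like cells. There 6 of its 8 UMIs lay in 1 cell, so that level describes the cell rather than the class. COL2A1, the cartilage collagen, was almost absent except in glia-like cells at E125, where 20 UMIs in 9 of 77 cells gave 97.4 CPM (59.5 to 150). The glia-like cluster had CDH19, a gene of Schwann cell precursors, among its leading genes. COL11A2 reached 22 UMIs or fewer in a whole library.

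The basement membrane genes COL4A1 and COL4A2, whose products join in 1 trimer, followed the vessels. In endothelial-like cells COL4A1 was at 391 CPM (343 to 445) at E85 and 979 CPM (954 to 1004) at E125, and COL4A2 at 219 CPM (183 to 260) and 837 CPM (814 to 860). Perivascular-like cells came next, with 313 and 546 CPM for COL4A1 and 198 and 644 CPM for COL4A2. At E85 the intervals of the endothelial-like and perivascular-like classes overlap for both genes. The lymphatic-marked cluster 21 of 63 endothelial-like cells at E125, led by CCL21, FLT4 and PROX1, differed from the main endothelial-like cluster 8 of 673 cells. It had 156 CPM of COL4A1 against 1024 CPM in cluster 8, which was 6.58-fold higher there (5.23 to 8.39). COL4A2 was 10.3-fold higher in cluster 8 (7.57 to 14.4) and COL15A1 5.52-fold higher (3.69 to 8.64). COL5A2 had the opposite order, with 52.6 CPM in cluster 21 and 14.4 CPM in cluster 8.

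COL4A4, which encodes a chain of a different type IV network, was placed elsewhere. It was at 117 CPM (102 to 134) in pregranulosa-like and 119 CPM (105 to 134) in surface-epithelium-like cells at E85, and at 206 CPM (195 to 217) and 121 CPM (77.6 to 180) at E125. In stromal-like cells it was at 31.2 and 45.9 CPM, and in endothelial-like cells it had no UMI at E85 and 4.52 CPM at E125. The surface-epithelium-like class at E85 was mixed in its markers. Surface epithelium markers summed to 716 CPM there and pregranulosa markers to 714 CPM, with mean marker shares of 0.718 and 0.546. The 2 classes were therefore not cleanly apart at E85. In thinned cells 22.7% (17.9 to 28.1) of pregranulosa-like cells at E85 and 37.8% (33.6 to 42.1) at E125 had a COL4A4 UMI, and 0 of 50 and 0 of 88 myeloid-like cells did, which allows up to 6.0% and 3.41% at 3 counts of the total. Unthinned, the pregranulosa-like shares were 44.0% and 75.1%. COL4A1 and COL4A2, by contrast, were at 47.2 and 27.2 CPM in pregranulosa-like cells at E125, far below their endothelial levels.

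Among genes of type VI collagen, which forms beaded filaments around cells, COL6A2, COL6A3 and COL6A5 had their highest level in stromal-like cells. At E85 the intervals of these genes overlapped with those of perivascular-like cells (57.0 to 183 CPM for COL6A2). At E125 only that of COL6A5 did. COL6A2 was at 153 CPM in stromal-like cells at E85 and 252 CPM at E125, and at 107 and 134 CPM in perivascular-like cells. COL6A3 was at 39.8 and 188 CPM in stromal-like cells, and at 8.24 (1 UMI) and 76.1 CPM in perivascular-like cells. COL6A5 was at 19.1 and 10.7 CPM in stromal-like cells. COL6A6, its neighbour in the annotation, was at 2.66 and 1.93 CPM.

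Fibril-associated collagens, which decorate the surface of fibrils, split between classes. COL12A1 was highest in stromal-like cells with 80.2 CPM (74.2 to 86.5) at E85 and 326 CPM (316 to 335) at E125, against 16.5 and 88.3 CPM in perivascular-like cells. COL14A1 was highest in perivascular-like cells at E85 with 857 CPM (700 to 1038), although 30 of its 104 UMIs there lay in 1 of 31 cells. At E125 COL14A1 was highest in glia-like cells with 560 CPM (462 to 672), then perivascular-like cells with 298 CPM (258 to 343) and stromal-like cells with 206 CPM (199 to 214). COL16A1 was at 76.9 and 99.4 CPM in stromal-like cells, and at E125 the level of 89.8 CPM (68.4 to 116) in perivascular-like cells overlapped with it.

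COL15A1, a basement-membrane-associated multiplexin, was an endothelial gene with 182 CPM (150 to 220) at E85 and 265 CPM (253 to 279) at E125. The next class was stromal-like at E85 with 6.53 CPM and glia-like at E125 with 63.3 CPM. Among named classes COL8A1, a short-chain collagen of sheet-like networks, was highest in surface-epithelium-like cells. It was there at 40.4 CPM (32.6 to 49.6) at E85 and 35.3 CPM (14.2 to 72.8, from 7 UMIs) at E125. The unnamed cluster 19 at E125 was higher, at 68.6 CPM. At E125 germ-cell-like droplets were at 33.0 CPM (29.6 to 36.7), a level that overlaps with the surface epithelium. COL28A1 stayed at or below 5.71 CPM in every named class. COL8A2, COL10A1, COL17A1, COL25A1 and COL26A1 had from 0 to 39 UMIs among all kept cells of a library.

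Of the 17 collagen genes with 50 UMIs or more at E85, 7 were highest in stromal-like cells, and for 6 of the 7 the interval overlapped with that of the next class, the 31 perivascular-like cells. At E125 it was 9 of 18 genes, with overlap for 3 of the 9. When the libraries were clustered separately the E85 number was 2. The same counts were not made over all genes, so they describe the collagen genes only.

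The stromal class was not uniform in its collagens, and different clusters made up most of it at each stage. At E85 it was mainly cluster 1 (965 cells, led by NPY and PENK) and cluster 2 (1385 cells, with ITIH5 and the stromal transcription factor TCF21). At E125 it was mainly cluster 22 (872 cells, led by DLK1, IGFBP3 and PENK), cluster 17 (1813 cells, led by MGP and APOD), cluster 16 (1188 cells, led by CCN3 and LMCD1) and cluster 18 (525 cells, led by CCL11 and CXCL10). Each of these clusters lay mostly in 1 library, so stage and cluster cannot be told apart. The dividing clusters 7 and 12 were stromal-like at E85 (109 and 91 cells) but unnamed at E125 (213 and 96 cells). The stromal-like class therefore held these clusters at E85 only.

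Within both libraries a PENK-bearing cluster had the most type I collagen. At E125 cluster 22 had 3972 CPM of COL1A2 and 2713 CPM of COL1A1, and 0.953% of its UMIs were collagen. Cluster 17 had 532 and 343 CPM and 0.272%. COL1A1 was thus 7.91-fold higher (7.54 to 8.31) and COL1A2 7.46-fold higher (7.17 to 7.76) in cluster 22. COL14A1 was 4.04-fold higher there, with 452 against 112 CPM, and COL15A1 23.6-fold higher (13.7 to 44.1), with 55.5 against 2.35 CPM. COL5A2 and COL6A3 were 2.76-fold and 2.22-fold higher.

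Other collagens had the reverse order. COL12A1 was 4.43-fold higher (3.95 to 4.98) in cluster 17, with 490 against 111 CPM. COL4A4 was 9.70-fold higher (6.19 to 16.1) in cluster 17, with 64.8 against 6.69 CPM. COL4A1 was 1.45-fold higher in cluster 17 and COL4A2 1.36-fold higher. At E85 cluster 1 had 1149 CPM of COL1A1 against 336 CPM in cluster 2, 3.42-fold higher (3.20 to 3.65), while COL4A4 was 3.44-fold higher (2.27 to 5.40) in cluster 2, COL4A1 1.42-fold higher (1.12 to 1.79) and COL12A1 1.22-fold higher (1.01 to 1.47). COL6A5 was at 46.0 CPM in cluster 18 at E125 against 4.35 CPM in cluster 22. At E85 it was at 27.0 CPM in cluster 3 (102 cells, led by interferon-response genes such as ISG15), 22.6 CPM in cluster 1 and 12.01 CPM in cluster 4. COL6A6 was at 21.6 CPM in cluster 4 at E85 (131 cells, led by POSTN and HOXA10) against 1.95 CPM in cluster 1 (9 and 5 UMIs).

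**Figure D2:**
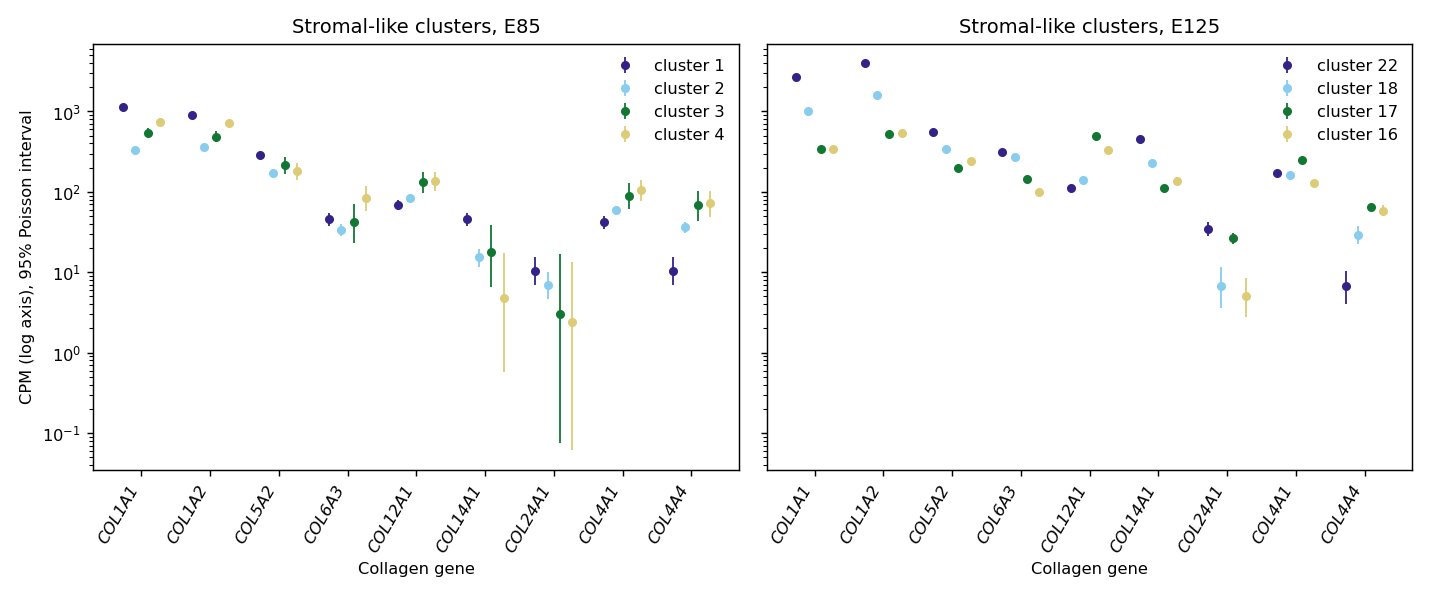
Level in CPM, on a log axis, of collagen genes in the stromal-like clusters of each library, with exact Poisson 95% intervals. Cluster 22 at E125 lies above the other clusters for COL1A1 and COL1A2 and cluster 17 lies above it for COL12A1 and COL4A4.

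The levels of chains that share a trimer were also compared across the clusters of 1 library. Over 14 clusters at E85 the levels of COL1A1 and COL1A2 had a Pearson correlation of 0.981, and over 18 clusters at E125 one of 0.993. For COL4A1 and COL4A2 the values were 0.917 and 0.985, and for COL6A2 and COL6A3 they were 0.673 and 0.930. Genes of different types reached similar values, such as 0.933 for COL12A1 and COL6A3 at E85. These clusters share a library and differ in depth, so the values describe the clusters only.

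Between the stages the stromal-like class had the broadest difference. A gene was counted as measured with 50 UMIs or more summed over both libraries in a class, and as higher or lower at 2-fold. Of the 26 collagen genes 18 were measured in stromal-like cells, and of these 10 were higher at E125 and 0 lower. Of all 10076 genes measured in that class, 17.6% were higher and 12.5% lower. The median log2 ratio was 1.35 for the measured collagen genes and -0.03 for all measured genes. The minimum can let a gene in through the stage in which it is high, so these counts describe the genes that passed it. The other 8 (COL2A1, COL6A6, COL8A2, COL10A1, COL11A2, COL17A1, COL25A1 and COL26A1) had 27 UMIs or fewer in either stromal-like class.

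The highest ratios were those of COL14A1, COL4A2, COL6A3 and COL12A1. COL14A1 went from 26.6 CPM at E85 to 206 CPM at E125, a 7.76-fold higher level (6.76 to 8.94). COL12A1 was 4.06-fold higher (3.74 to 4.41), and the share of thinned stromal-like cells with a COL12A1 UMI was 13.0% at E85 and 38.5% at E125. COL4A2 went from 33.6 to 190 CPM, 5.65-fold higher (4.99 to 6.42), and COL4A1 from 55.1 to 193 CPM, 3.50-fold higher (3.17 to 3.87). COL6A3 was 4.73-fold higher (4.22 to 5.32). The ratios of these 5 genes lay above those of both type I genes.

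COL1A2 was 2.52-fold higher at E125 (2.44 to 2.60), whereas COL1A1 was 1.45-fold higher (1.403 to 1.496) and did not reach 2-fold. In thinned cells the share with a COL1A1 UMI was 58.7% at E85 and 55.8% at E125, an order opposite to that of the CPM, so no order is read from it. The lower-level genes COL8A1 (3.88-fold, 2.20 to 7.37), COL15A1 (3.59-fold, 2.68 to 4.88), COL24A1 (2.78-fold, 2.11 to 3.71) and COL5A3 (2.60-fold, 2.06 to 3.31) were also higher. At a finer clustering COL8A1 and COL24A1 came to 1.99-fold, just under the limit. Without the dividing clusters COL8A1 came to 6.05-fold.

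The remaining 8 measured genes stayed within 2-fold. COL6A2, COL11A1, COL4A4, COL5A2, COL16A1 and COL28A1 ranged from 1.65-fold (COL6A2) to 1.08-fold (COL28A1, 0.666 to 1.77). COL6A5 was the exception in direction, going from 19.1 to 10.7 CPM at a ratio of 0.561 (0.445 to 0.705). That ratio does not hold for every stromal-like cluster. At E125 COL6A5 was at 46.0 CPM in cluster 18, above its highest cluster level at E85, 27.0 CPM in cluster 3. Clusters 17 and 22 at E125 were at 5.54 and 4.35 CPM.

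**Figure D3:**
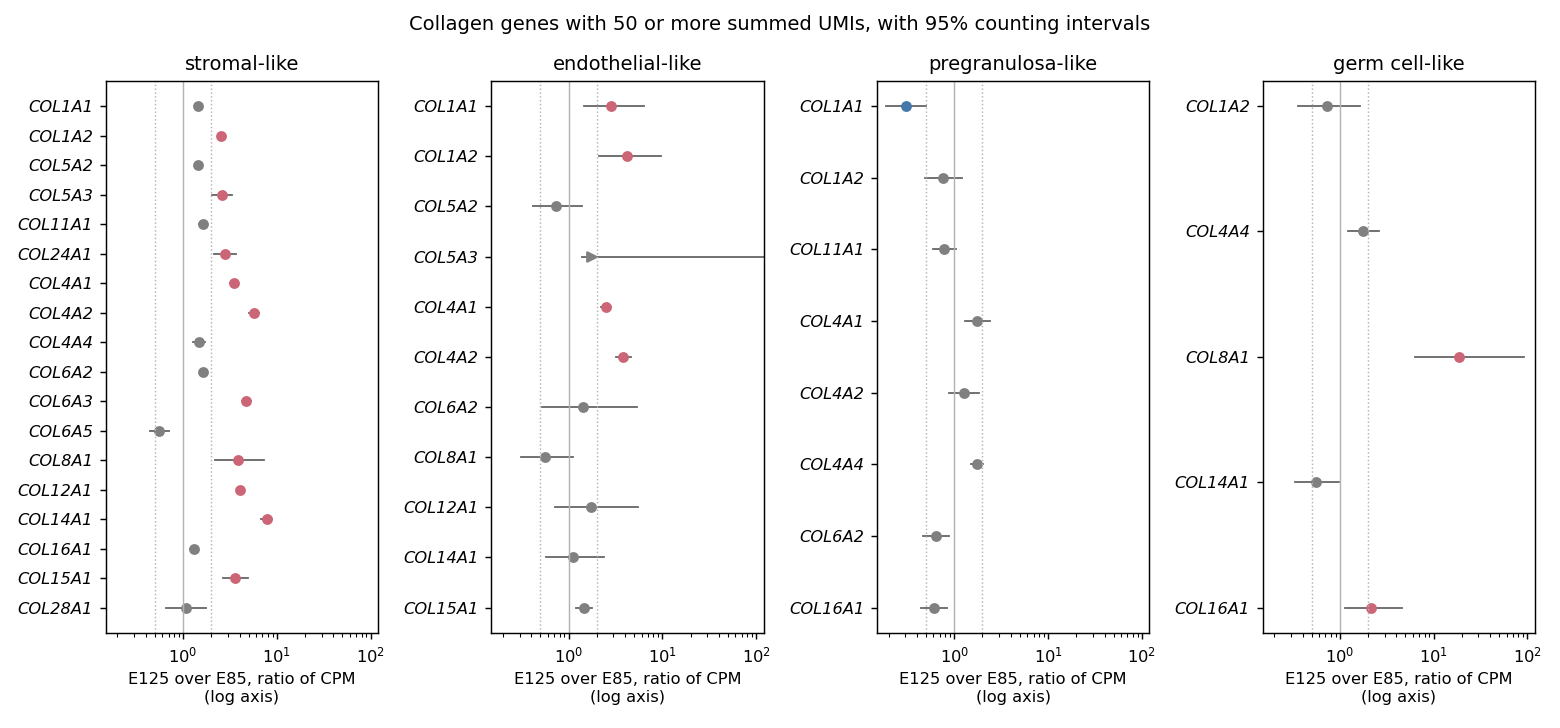
Ratio of E125 over E85 CPM on a log axis for each measured collagen gene in the stromal-like, endothelial-like, pregranulosa-like and germ-cell-like classes, with exact conditional 95% intervals and lines at equality and at 2-fold. In the stromal-like panel 10 genes lie above the upper line, and COL1A1 lies below the lower line only in pregranulosa-like cells.

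In endothelial-like cells 11 collagen genes were measured, of which 4 were higher at E125 and 0 lower. Of all 7065 genes measured there 20.3% were higher and 7.4% lower, and the median log2 ratio was 0.78 for the collagen genes and 0.16 for all. COL4A2 was 3.82-fold higher (3.22 to 4.58) and COL4A1 2.50-fold higher (2.19 to 2.86). When cells were averaged instead of summed, the COL4A1 ratio was 1.53. The share of thinned endothelial-like cells with a COL4A1 UMI was 54.2% (42.0 to 65.98) at E85 and 72.0% (68.4 to 75.4) at E125. Unthinned, it was 74.1% and 87.3%. COL15A1 was 1.46-fold higher (1.20 to 1.78).

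The other 2 endothelial calls were type I genes at low level. COL1A2 went from 13.3 to 55.5 CPM (8 and 331 UMIs), a ratio of 4.18 (2.10 to 9.76), and COL1A1 from 14.9 to 42.4 CPM, a ratio of 2.84 (1.47 to 6.28). In thinned cells 4.64% of endothelial-like cells at E125 had a COL1A2 UMI, near the 4.55% (1.25 to 11.2) of myeloid-like cells, while the COL1A2 level of 55.5 CPM (49.7 to 61.8) lay above the 29.3 CPM (17.1 to 46.9) of myeloid-like cells. The summed level of the 13 stromal marker genes in endothelial-like cells was 509 CPM at E85 and 1177 CPM at E125. Its part in the type I values was not tested. COL5A3 had 0 UMIs at E85 and 53 at E125, so it passed the minimum through E125 alone. With a floor of 3 UMIs in the E85 class sum its ratio was 1.79, and the lower bound of its counting interval was 1.40.

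Pregranulosa-like cells had few collagen differences, and these depended on how clusters were named. Of 8 measured genes 0 were higher and 1 lower, against 13.6% higher and 11.2% lower among all 7353 measured genes. The median log2 ratio was -0.37 for the collagen genes and -0.06 for all. TMM scaling and DESeq2-type size factors, which moved the median of all genes by 0.24 and 0.25 on the log2 scale, gave 2 higher and 1 lower. COL4A4 went from 117 to 206 CPM, a ratio of 1.76 (1.52 to 2.04), and COL4A1 from 27.1 to 47.2 CPM, a ratio of 1.74 (1.29 to 2.40). COL1A1 was 3.27-fold lower at E125 (2.01 to 5.29), from 18.8 to 5.76 CPM. Its share of thinned cells was 3.25% and 0.19%, against 2.0% and 2.27% in myeloid-like cells, where its levels were 28.9 CPM (14.9 to 50.4) and 22.4 CPM (11.9 to 38.3). Neither share was read as expression. Cluster 10 held most of this class at E85 and cluster 11 at E125.

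The naming choice decides this comparison. The first version of the naming rule put clusters 7 (213 cells, led by cell division genes such as TOP2A) and 19 (285 cells, led by ERICH3 and CITED1) at E125 among the pregranulosa-like cells. The rule was tightened, after cluster names and marker shares were seen, so that these clusters stay unnamed. With the first version 8 collagen genes were higher and 0 lower in the class, and COL1A1 had a ratio of 3.53. The shares of all genes higher and lower were not counted with that version, so the 8 cannot be set against them. In cluster 7 COL1A1 was at 567 CPM, against 5.77 CPM in cluster 11.

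Germ-cell-like droplets had a collagen share as low as that of myeloid-like cells, and 1 collagen gene, COL8A1, that differed widely between the libraries. Of 5 measured genes 2 were higher at E125 and 0 lower, against 19.4% higher and 17.6% lower among all 9076 measured genes. The median log2 ratio was 0.83 for the collagen genes and -0.06 for all genes. COL8A1 went from 1.76 CPM to 33.0 CPM, a ratio of 18.7 (6.35 to 91.2), and the ratio was 111 when droplets were averaged. The E85 value rests on 3 UMIs in 1 droplet, the E125 value on 340 UMIs in 68 droplets. Droplets with 20000 UMIs or more, numbered 22 at E85 with a median of 56360.5 UMIs and 76 at E125 with a median of 128314 UMIs. COL8A1 was found in 1 of the 22 and 65 of the 76, and their levels were 1.95 and 33.2 CPM.

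Other cells at E125 had COL8A1 at 3.17 CPM (pregranulosa-like), 6.57 CPM (stromal-like) and 12.1 CPM (endothelial-like). Surface-epithelium-like cells, at 35.3 CPM, and the unnamed cluster 19, at 68.6 CPM, were not below the germ-cell-like level. Perivascular-like cells had 16 UMIs, in 10 of 140 cells. In thinned droplets 0 of 54 germ-cell-like droplets at E85 had a COL8A1 UMI, which allows up to 5.56% at 3 counts of the total, and 6.80% (2.78 to 13.5) of 103 did at E125, against 0.77% of pregranulosa-like cells. The surface epithelium markers summed to 251 CPM in germ-cell-like droplets at E85 and 585 CPM at E125. At E125 UPK1B was the only 1 of the 9 markers in the table at 0. Their part in the COL8A1 values was not tested. COL16A1 was 2.13-fold higher (1.12 to 4.55), from 5.87 to 12.5 CPM, and 1.41-fold higher when droplets were averaged. COL4A4 was at 18.8 and 33.4 CPM, and 20 of its 32 UMIs at E85 lay in 1 droplet.

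Myeloid-like cells had no collagen gene with 50 summed UMIs, while 16.8% of the 2100 genes measured in that class were higher and 8.71% lower.

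**Figure D4:**
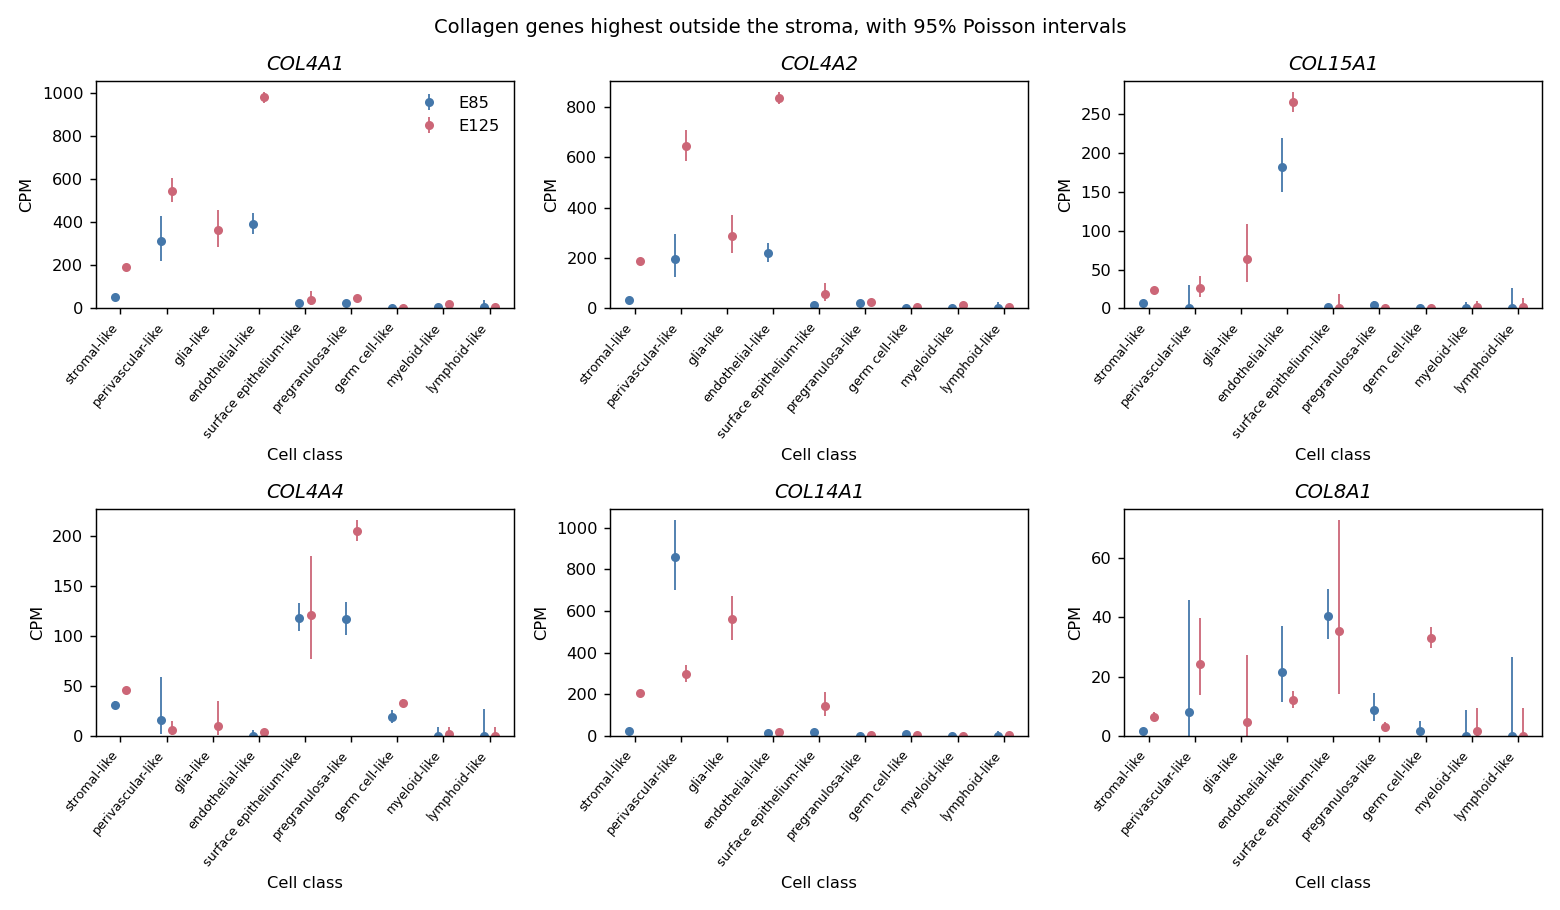
Level in CPM, on linear axes from 0, of 6 collagen genes that are highest outside the stroma, by class and library, with exact Poisson 95% intervals. COL4A1, COL4A2 and COL15A1 peak in endothelial-like cells, COL4A4 in pregranulosa-like and surface-epithelium-like cells, COL14A1 in perivascular-like cells at E85 and glia-like cells at E125, and COL8A1 in germ-cell-like droplets is near 33.0 CPM at E125 and 1.76 CPM at E85.

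The balance of partner chains differed between the libraries. In stromal-like cells there were 1.16 COL1A1 UMIs per COL1A2 UMI at E85 (1.12 to 1.21), while the E125 library had 0.667 (0.653 to 0.682). The ratio was lower at E125 in every class with 50 UMIs of the pair in both libraries. It went from 1.28 to 0.768 in perivascular-like cells, from 1.21 to 0.488 in pregranulosa-like cells, from 1.53 to 1.07 in surface-epithelium-like cells and from 1.65 to 0.796 in unnamed cells. Intervals of the 2 stages overlap for the pregranulosa-like and surface-epithelium-like values. In surface-epithelium-like cells at E125, 1 cell held 54 of the 88 COL1A1 UMIs, and 1 cell held 56 of the 82 COL1A2 UMIs. Pregranulosa-like COL1A1 levels were no higher than those of myeloid-like cells. The classes were not treated as independent measures, and the part of free RNA in them was not tested. For COL4A1 over COL4A2 the ratio went from 1.64 to 1.02 in stromal-like and from 1.79 to 1.17 in endothelial-like cells. In perivascular-like cells it went from 1.58 (0.925 to 2.76) to 0.849 (0.735 to 0.979). In pregranulosa-like cells it went from 1.26 (0.808 to 1.97) to 1.74 (1.45 to 2.09). For the last 2 classes the intervals of the stages overlap, so no direction is read from them. A library-wide difference in capture and a difference in the cells cannot be told apart with 1 library per stage.

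The genes that process collagen are given beside the same share of all measured genes as above, 17.6% higher and 12.5% lower in stromal-like cells. Of 16 measured processing enzymes and chaperones in stromal-like cells, 6 were higher at E125 and 0 lower, among them P3H1 (25.7 to 98.8 CPM, 3.84-fold), a prolyl 3-hydroxylase that modifies collagen chains in the endoplasmic reticulum, and its relatives P3H3 (4.13-fold) and P3H2 (3.76-fold). Of 8 measured maturation and cross-linking genes, 4 were higher and 0 lower. PCOLCE2, which enhances removal of the C-terminal propeptide, went from 23.9 to 153 CPM (6.39-fold), ADAMTS2, which removes the N-terminal propeptide, was 4.95-fold higher, and the cross-linking enzyme LOX was 5.74-fold higher from 7 UMIs.

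Fibril partners went both ways, with 5 higher and 2 lower of 14 measured in stromal-like cells, the lower share being near that of all genes. The matricellular genes THBS2 (40.4 to 247 CPM, 6.12-fold), THBS1 (5.34-fold) and TNC (3.29-fold) were higher. POSTN, a matricellular protein that helps cross-linking, was 5.54-fold lower (129 to 23.3 CPM), and the fibril-binding proteoglycan LUM was 2.42-fold lower (262 to 108 CPM). LUM, DCN, OGN and FBLN1 are also markers used to name the class.

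Basement membrane partners (3 higher, 0 lower of 9: LAMC1, HSPG2 and LAMB2, from 2.38- to 2.80-fold), collagen receptors (4 higher, 0 lower of 8) and breakdown genes (4 higher, 0 lower of 9) followed. Among receptors ITGA1 (7.09-fold, from 4 UMIs) and ITGA11 (5.61-fold, from 10 UMIs), integrin subunits that bind collagen, and MRC2 (3.29-fold), a collagen uptake receptor, had the highest ratios. TIMP2, an inhibitor of matrix metalloproteinases, was 3.35-fold higher, and the metalloproteinase genes MMP23B and MMP16 were 2.98-fold and 2.56-fold higher.

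In endothelial-like cells, where 20.3% of all measured genes were higher and 7.4% lower, 4 of 9 measured basement membrane partners were higher and 0 lower, among them LAMA2 (4.90-fold, from 2 UMIs) and LAMB2 (2.29-fold), which encode laminin chains, and NID2 (2.80-fold), which encodes a nidogen that links laminin to type IV collagen. Another 7 of 11 fibril partners were higher there, with OGN at 9.001-fold and BGN at 7.82-fold. OGN, DCN and FBLN1 belong to the stromal marker list that was itself higher in these cells. In pregranulosa-like cells PCOLCE2 was 3.47-fold higher (38.2 to 133 CPM) while PCOLCE had a ratio of 0.333, and the laminin genes LAMC1 and LAMB2 were 2.07-fold and 2.02-fold higher and LAMA4 2.06-fold lower.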

How the data were processed

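The deposited values are raw UMI counts, 1 whole number for each gene and barcode with no normalization by the authors, from a 10x 3′ kit of version 3.1 per the labels' protocols. The submitters' processing notes name Cell Ranger 3.1, and the file headers name Cell Ranger 6.0.0. Neither the genome build nor the annotation is given in the sources used here. Of 27271 features, 16616 carry a symbol.

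Barcodes with fewer than 500 genes or over 20% mitochondrial UMIs were left out (425 at E85, 809 at E125). Then the highest Scrublet scores, 0.8% per 1000 barcodes, were removed by rank and not by the caller's own threshold (140 and 503), so some doublets may remain. Cells of both libraries were clustered together with scanpy 1.11.5 (2000 variable genes without collagens, 30 components, 15 neighbours, Leiden resolution 1). Each marker's CPM in a cluster was divided by its highest CPM over the clusters of the same library. Clusters with 15 cells or more were given the class of highest mean share, provided that it reached 0.3 and that 3 markers or more reached 0.25. Markers under 20 CPM everywhere were ignored. A cluster with none of its markers among its top 10 genes by fold and a second class above 66% of the best stayed unnamed. That last limit was picked after cluster names and marker shares were seen and before collagen levels by class were computed. Names rebuilt in this way may differ from those of the study.

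UMIs of each class were added up within a library and scaled to CPM. Classes with 50 or more cells in both libraries were compared. Sums carry exact Poisson intervals, ratios exact conditional intervals and shares Clopper-Pearson intervals, all at 95% and for counting error only. A count of 0 was replaced by a floor of 3 UMIs per class sum, and a share of 0 is given with the limit of 3 counts of the total in place of an interval. The ratio script was tested on simulated counts, in which lower genes more often missed the minimum of 50 UMIs than higher ones. All collagen genes are accounted for, and those with 50 summed UMIs in a compared class are described. Of each pathway list at most the 3 highest and 3 lowest ratios per class were named. Alternatives covered scaling with edgeR 4.0.16, thinning, the minimum, the fold, clustering, cell filters and doublets. Another 3 were added after the data were seen: large germ-cell-like droplets alone, close second classes allowed, and dividing clusters left out. The members and lists were chosen with earlier results of these data known. No sequences are printed because the reference tables used here hold none.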

Additional observations from a re-analysis of the deposited data

Results flagged for a closer look

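The stage ratios of 4 collagen genes had counting intervals on opposite sides of 1 in 2 classes, a difference between classes that was not tested because each stage is 1 library. How often this occurs among all measured genes was not counted. COL1A1 had a ratio of 0.306 in pregranulosa-like cells, against 1.45 in stromal-like and 2.84 in endothelial-like cells. The pregranulosa-like levels of 18.8 and 5.76 CPM were no higher than the 28.9 and 22.4 CPM of myeloid-like cells, and the ratio was 3.53 with close second classes allowed. COL6A2 had a ratio of 0.633 in pregranulosa-like and 1.65 in stromal-like cells. COL16A1 had a ratio of 0.607 in pregranulosa-like cells, against 1.29 in stromal-like and 2.13 in germ-cell-like cells. COL14A1 had a ratio of 0.556 (0.329 to 0.983) in germ-cell-like droplets and 7.76 in stromal-like cells. With droplets averaged instead of summed, the germ-cell-like ratio was 3.39, in the other direction. The COL14A1 count in germ-cell-like droplets was 19 UMIs at E85, of which 7 lay in 1 droplet, and 64 at E125.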

How the results depend on the processing

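Of 42 stage ratios, 33 kept their direction in every alternative run, and of the 17 past 2-fold, 12 stayed past it. COL1A1 in pregranulosa-like cells reversed, from 0.306 to 3.53, with close second classes allowed, and was at 0.503 with no doublets removed. With droplets averaged, COL14A1 in germ-cell-like droplets turned from 0.556 to 3.39 and COL8A1 moved from 18.7 to 111. The count of 10 higher stromal collagens stayed within 1.5 times under the alternatives run, while the lower count of 0 became 1 with cells averaged and at 1.5-fold. In endothelial-like cells 4 higher became 1 after thinning to 2000 UMIs and 7 with no doublets removed, and 0 lower became 1 at 1.5-fold, with no cell filter and with the stricter filter. Shares over all measured genes were counted under the main settings only, so the counts of the alternatives have none beside them.

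In pregranulosa-like cells 0 higher became 2 with TMM, DESeq2-type size factors, cells averaged, no minimum, 1.5-fold, resolution 2 and separate clustering. It became 1 with a minimum of 20 UMIs and with the stricter filter, 4 with no doublets removed and 8 with close second classes allowed. The count of 1 lower became 0 after thinning and with close second classes, 2 with a minimum of 20, resolution 2, separate clustering and the stricter filter, 3 at 1.5-fold and 6 with no minimum. In germ-cell-like droplets 2 higher became 0 after thinning and 4 with a minimum of 20 or none. The count of 0 lower became 1 with droplets averaged, at 1.5-fold, with no cell filter and in large droplets alone, 2 with a minimum of 20 and 8 with none.

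The collagen share of stromal-like UMIs at E85 moved from 0.205% to 0.269% at resolution 2, 0.197% with separate clustering and 0.210% without dividing clusters. At E125 it moved from 0.438% to 0.430% after thinning, 0.374% with collagens kept in clustering, 0.428% at resolution 0.5, 0.485% at resolution 2 and 0.434% with close second classes. Thinning gave 0.103% and 0.238% in endothelial-like cells. The pregranulosa-like share at E85 moved from 0.0331% to 0.0288% at resolution 2, 0.0287% with separate clustering and 0.0397% with no doublets removed. At E125 it moved from 0.0394% to 0.0473% after thinning, 0.0413% at resolution 2, 0.0458% with separate clustering, 0.0356% with the stricter filter, 0.0442% with no doublets removed and 0.0628% with close second classes. The causes were not tested. The number of genes highest in stromal-like cells at E85 went from 7 to 2 with separate clustering, where 85 cells were perivascular-like.

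Shares of cells with a UMI moved with depth. Unthinned, COL1A2 was found in 67.4% and 74.6% of stromal-like cells, COL4A1 in 74.1% and 87.3% of endothelial-like cells and COL4A4 in 44.0% and 75.1% of pregranulosa-like cells. Thinned to 1000 UMIs these were 37.1% and 51.2%, 38.6% and 53.2%, and 11.8% and 23.2%. Pregranulosa-like cells could not be compared at resolution 0.5 (4 cells at E85) or with no cell filter (46), nor germ-cell-like droplets with the stricter filter (42 at E85), nor myeloid-like cells at resolution 2 or with separate clustering (16 each at E85). No paired analysis was possible because each stage has 1 library. At E85 the 31 perivascular-like cells held 121343 UMIs and the 85 endothelial-like cells 602960, which limits what can be measured in them.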
